A study of Homo sapiens with 6 samples.

Results

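Interferon-stimulated genes are the genes that cells switch on when interferons signal through their receptors, and RNA sensors are the proteins that detect foreign or misplaced RNA upstream of interferon production. A list of 51 such genes was described in MDA-MB-231 cells, a human line of triple-negative breast cancer, after silencing of the RNA-binding protein Sam68. The members were found by symbol in the deposited table of 74852 loci. The table held 48 of the 51 symbols, and 47 members had a mean normalized read count of at least 10 and were tested, among 18849 loci in all. OAS1, OAS2 and OAS3 were not analysed here, and CMPK2 was below the minimum.

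The cells had been transfected in 2 rounds, either with a control siRNA pool (group si-CTRL) or with a SAM68-targeting pool (group si-SAM68), and each group has 3 libraries. Both groups received siRNA and transfection reagent, and no untransfected library was analysed here, so that a response to transfection itself, which both groups would share, cannot be seen in these comparisons. By the labels the cells were harvested 24 h after the last round, whereas the methods of the study give a later time, another medium and another extraction kit. Nothing states that the libraries came from separate cultures, so that the p-values measure the spread between these libraries. Each group rests on 1 siRNA pool, and silencing of SAM68 cannot be told apart from other effects of that pool.

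The reads on all loci were between 52625492 and 82568487 per library, and 1 rRNA locus took 15.1% of the reads of si-SAM68 replicate 2 against 1.83 to 3.17% in the others. KHDRBS1, the gene encoding Sam68, fell from a normalized read count of 14960.0 ± 619.7 (SD, n = 3) to 618 ± 45.8 (log2 fold change -4.60, limma adjusted p = 2.13e-09). The mesenchymal markers of the line were abundant, with VIM between 138300.3 and 173162 and CD44 between 43246 and 68397, while ESR1, PGR, CDH1 and EPCAM stayed at or below 15.2. Of 8 marker loci of blood cells that hold 1 gene each, 2 were at 0 in all libraries. Their summed count was 75.5 to 115 in si-CTRL and 107 to 134 in si-SAM68, mostly from ITGAM. The part of these reads in the results was not tested. The marker CD68 was left out of the sum, because its locus joins EIF4A1, SENP3 and other genes, with counts of 107000.2 to 117455.

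In the known pathway, RIG-I (encoded by DDX58) and MDA5 (IFIH1) recognise double-stranded RNA in the cytosol, and TLR3 recognises it in endosomes. They signal to IRF3 and IRF7, which induce interferon genes. Secreted interferon then acts through JAK kinases on transcription factors such as STAT2 and IRF9, which bind the interferon-stimulated response element in promoters and switch on antiviral effectors such as the MX, IFIT and OAS proteins. Both siRNA pools are short double-stranded RNAs, and their sequences, as the study lists them, are shown because they are the RNA that these cells received. Capitals mark the triplet UGU, since siRNAs rich in U and G are known ligands of the endosomal receptors TLR7 and TLR8.
si-CTRL siRNA 1: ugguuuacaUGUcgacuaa
si-CTRL siRNA 2: ugguuuacaUGUUGUGUga
si-CTRL siRNA 3: ugguuuacaUGUuuucuga
si-CTRL siRNA 4: ugguuuacaUGUuuuccua
si-SAM68 siRNA 1: gcacccauauggacguuau
si-SAM68 siRNA 2: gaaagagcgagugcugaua
si-SAM68 siRNA 3: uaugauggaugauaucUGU
si-SAM68 siRNA 4: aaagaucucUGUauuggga

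The control siRNAs share their first 12 bases, and all 4 hold UGU, 6 times in total. UGU occurs in 2 of the 4 SAM68 siRNAs, 2 times in total. Only the listed strand was searched, and the triplet does not measure the whole content of U and G. The control siRNAs hold 7 to 10 U of 19 bases and the SAM68 siRNAs 3 to 8. TLR7 had a normalized read count between 0 and 7.75 in the 6 libraries, and TLR8 between 0 and 3.68. The part of the pool sequences in any difference below was not tested.

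The 47 members tested, which had been kept for a mean count of at least 10, were detected in both groups without added interferon. Levels between genes are compared as normalized reads per kb of the longest transcript, averaged over the 6 libraries, which 45 members had. Of these, 28 were above the 50th percentile of the tested loci with a transcript length and 9 above the 90th percentile. IFITM3, a membrane protein that blocks virus entry, led with 14657 reads per kb, followed by its relative IFITM2 with 10271. ISG15, a ubiquitin-like modifier, reached 5682, IFI16, a nuclear DNA sensor, 5491, and IFIT3, of the family that binds viral RNA ends, 4533. Among the RNA sensors the level of DDX58 was 1362 reads per kb, that of IFIH1 was 302 and that of TLR3 was 139. The lowest levels were those of XAF1 (31.9) and RSAD2 (22.9), which encodes the antiviral enzyme viperin.

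**Figure D1:**
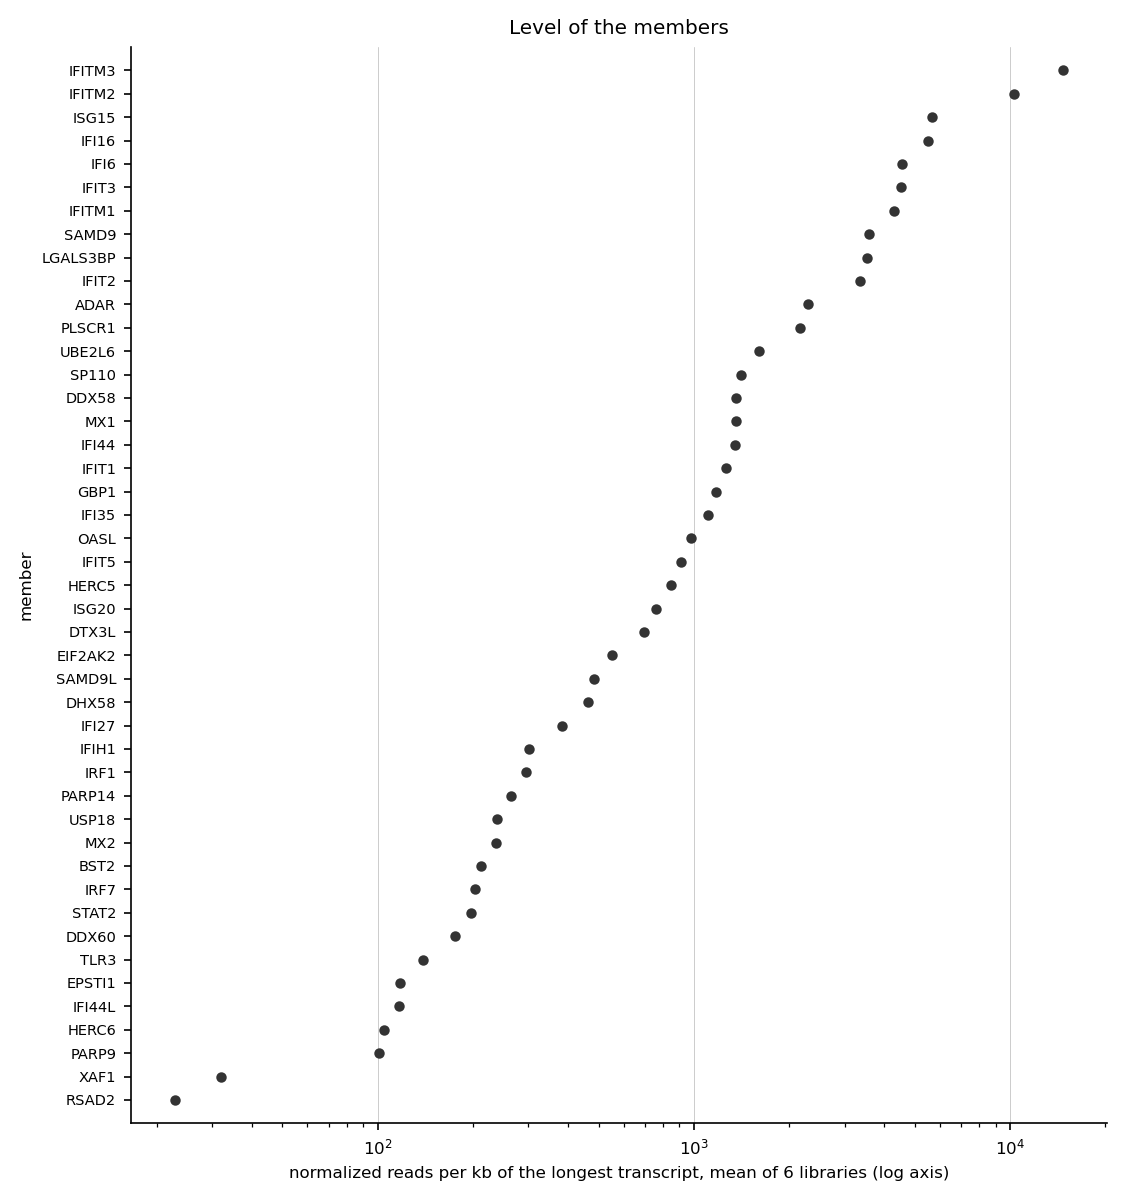
Level of the 45 members with a transcript length, as normalized reads per kb of the longest transcript (horizontal log axis, 1 point per member, mean of 6 libraries). The levels run from 22.9 for RSAD2 to 14657 for IFITM3.

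Of the 47 members tested, 7 had an adjusted p under 0.05 (14.9%), against 10.7% of all loci. TLR3, the locus joining GBP2 and GBP7, and LGALS3BP rose. ISG20, MX1, MX2 and STAT2 fell. In bulk RNA, fewer cells that express a gene and less RNA per cell cannot be told apart. The 3 that rose are 6.38% of the members tested, beside 4.47% of all loci, and the 4 that fell are 8.51%, beside 6.23% of all loci. By the thresholds of the study (unadjusted p of at most 0.05 and fold change of at least 1.5), 2 members were higher (4.26%, all loci 2.83%) and 3 were lower (6.38%, all loci 4.83%). The groups did not overlap in 12 members (25.5%), compared with 33.9% of all loci. These shares stand near those of all loci. When the variance was moderated without a trend, the calls of ISG20, MX1, MX2, STAT2 and LGALS3BP were lost (adjusted p between 0.051 and 0.144). That fit called 899 of all loci, against 2017 in the main fit.

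The other 40 members did not pass the test. Their log2 fold changes lay between -0.53 and 0.36, and 34 of them within 0.3 of 0. An unadjusted p under 0.05 was found for 15 members in all, and the share of all loci at that level is not given here. The median log2 fold change over the 47 members was -0.094 (interquartile range -0.24 to 0.055), with 17 members higher and 30 lower in si-SAM68, beside a median of 0.005 over all loci (-0.19 to 0.20). It stayed negative with each library left out, and was -0.014 once si-CTRL replicate 3 was left out and -0.14 once si-SAM68 replicate 2 was.

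**Figure D2:**
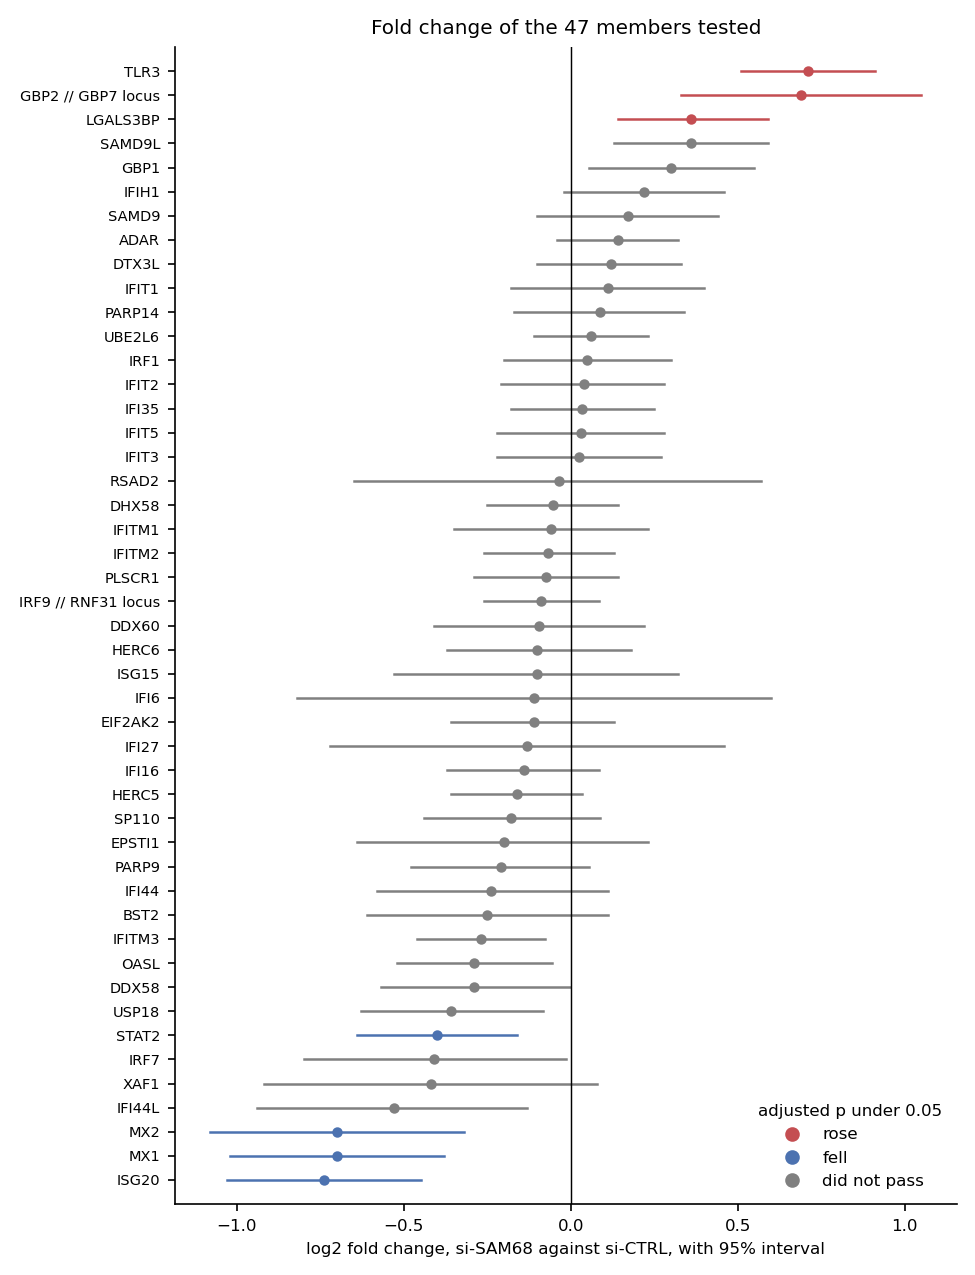
Log2 fold change of si-SAM68 against si-CTRL (horizontal axis) with its 95% interval from limma for each of the 47 members tested, in order of fold change. Red marks the 3 members that rose, blue the 4 that fell and grey the 40 that did not pass the test.

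Among the sensors of RNA, TLR3 rose and the other 6 did not pass the test. The normalized read count of TLR3 (chr4:186990309-187008826, hg19) was 639, 610.2 and 655 in the si-CTRL libraries and 984, 1063 and 1066 in the si-SAM68 libraries. All si-SAM68 libraries were above all si-CTRL libraries, with a gap wider than the spread in either group. The log2 fold change was 0.71 (SE 0.0896, limma adjusted p = 0.00166), or 1.63-fold. TLR3 had the smallest adjusted p of the members, and the call held with each library left out (adjusted p at most 0.0183).

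DDX58, which senses short RNA with a triphosphate end, had counts of 7232, 5524 and 6792 in si-CTRL and 4477, 5779.6 and 5779.7 in si-SAM68. The groups overlapped, and the log2 fold change was -0.29 (95% interval -0.57 to -0.0031, adjusted p = 0.182). IFIH1, which senses long double-stranded RNA, had counts of 1004, 945 and 1049.5 in si-CTRL and 1010.4, 1297 and 1204 in si-SAM68. Its log2 fold change was 0.22 (-0.021 to 0.46, adjusted p = 0.223). These groups overlapped too.

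DHX58 encodes LGP2, a helicase that modulates the other cytosolic sensors. It had 1245, 1155 and 1304 in si-CTRL and 1161, 1235 and 1169.6 in si-SAM68, a log2 fold change of -0.054 (-0.25 to 0.14). EIF2AK2 encodes PKR, the kinase that halts translation on binding double-stranded RNA. Its counts of 6672, 5221 and 5421 in si-CTRL and 4742, 5503 and 5719 in si-SAM68 overlapped, with a log2 fold change of -0.11 (-0.36 to 0.13). ADAR, which edits double-stranded RNA and so limits its recognition, had 15597, 14351 and 13821 in si-CTRL and 15237, 17295 and 15699 in si-SAM68. Its groups also overlapped, at a log2 fold change of 0.14 (-0.041 to 0.32). The remaining sensor, the helicase DDX60, had a log2 fold change of -0.094 (-0.41 to 0.22).

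Of the transcription factors, STAT2 fell and IRF1, IRF7 and IRF9 did not pass the test. STAT2 (chr12:56735384-56754037, hg19), which carries the interferon signal to the nucleus with IRF9, had 789, 654 and 761 in si-CTRL and 586, 524 and 555 in si-SAM68. The groups did not overlap, and the log2 fold change was -0.40 (SE 0.107, limma adjusted p = 0.0421), or 75.8% of the si-CTRL level in the fit. The adjusted p of STAT2 was 0.118 without si-CTRL replicate 3, and 0.0789, 0.16 and 0.136 without si-SAM68 replicates 1, 2 and 3.

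The locus that carries IRF9 also joins RNF31, and the reads cannot be divided between them. It had 2667, 2763 and 2701 in si-CTRL and 2689, 2424 and 2545 in si-SAM68, a log2 fold change of -0.088 (-0.26 to 0.084). IRF1, a factor induced by interferon gamma, had 1169.8, 1008 and 926 in si-CTRL and 1145, 1093 and 966 in si-SAM68, with overlap and a log2 fold change of 0.049 (-0.20 to 0.30). IRF7, which amplifies interferon production, had 419.9, 403 and 619 in si-CTRL and 327, 419 and 328 in si-SAM68. Its log2 fold change was -0.41 (-0.80 to -0.014, adjusted p = 0.171), and si-CTRL replicate 3 was the high library.

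In the dynamin-like GTPases, both MX genes fell. MX1 (chr21:42792442-42831140, hg19), which traps viral nucleocapsids, had counts of 6403, 4580.2 and 6565 in si-CTRL and 3135, 4017 and 3551 in si-SAM68. Its log2 fold change was -0.70 (SE 0.142, limma adjusted p = 0.0147), or 61.5% of the si-CTRL level in the fit. Leaving out si-SAM68 replicate 1 gave MX1 an adjusted p of 0.0694, and leaving out replicate 3 gave 0.0778. MX2 (chr21:42733950-42781317, hg19), which lies beside MX1 and restricts retroviruses, had 965, 670.2 and 1042 in si-CTRL and 460.4, 613 and 554 in si-SAM68. For MX2 the log2 fold change was also -0.70 (SE 0.17, adjusted p = 0.0296). In both genes si-CTRL replicate 2 was the low control library and si-SAM68 replicate 2 the high knockdown library, without overlap of the groups. With the replicate number as a block, the adjusted p of MX2 was 0.0521, and it was 0.0877, 0.11 and 0.108 without si-CTRL replicate 3, si-SAM68 replicate 1 and si-SAM68 replicate 3.

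The guanylate-binding proteins are GTPases that attack the vacuoles of intracellular pathogens and are best known as targets of interferon gamma. The locus joining the paralogs GBP2 and GBP7 (chr1:89571818-89641723, hg19) had 98.7, 134 and 115 in si-CTRL and 194, 167 and 198 in si-SAM68. All si-SAM68 libraries were above all si-CTRL libraries, and the log2 fold change was 0.69 (SE 0.16, adjusted p = 0.0247), or 1.61-fold. The split of these reads between the paralogs is unknown. The adjusted p of this locus was 0.0505 with the replicate block, 0.0626 without si-CTRL replicate 3, and 0.0875, 0.0526 and 0.112 without si-SAM68 replicates 1, 2 and 3. GBP1, named after its values were seen, had a log2 fold change of 0.30 that did not pass the test (adjusted p = 0.114). Without si-CTRL replicate 1, its highest control library, the adjusted p of GBP1 was 0.00192. With any other library left out it was between 0.209 and 0.283.

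Among the remaining effectors, ISG20 fell and LGALS3BP rose. ISG20 (chr15:89178868-89199575, hg19), an exonuclease that degrades viral RNA, had 2106, 1467 and 1726 in si-CTRL and 972, 1123 and 1047 in si-SAM68. The groups were apart, and ISG20 had the largest fold change of the members called. Its log2 fold change was -0.74 (SE 0.129, limma adjusted p = 0.00774), or 59.9% of the si-CTRL level in the fit. The call held with each library left out, with an adjusted p of at most 0.0494. LGALS3BP (chr17:76967336-76976061, hg19), a secreted glycoprotein that binds galectins, had 6570.4, 7673 and 8106 in si-CTRL and 10512, 9625 and 8603 in si-SAM68. The groups were close to each other, with a log2 fold change of 0.36 (SE 0.102, adjusted p = 0.0499). The call of LGALS3BP was lost with the replicate block (adjusted p = 0.0874), in edgeR (0.0517), and without si-CTRL replicates 2 and 3 (0.0765 and 0.0564) or any si-SAM68 library (0.161, 0.149 and 0.077). The other 7 members of this group (RSAD2, XAF1, SAMD9, SAMD9L, EPSTI1, PLSCR1 and SP110) did not pass the test.

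**Figure D3:**
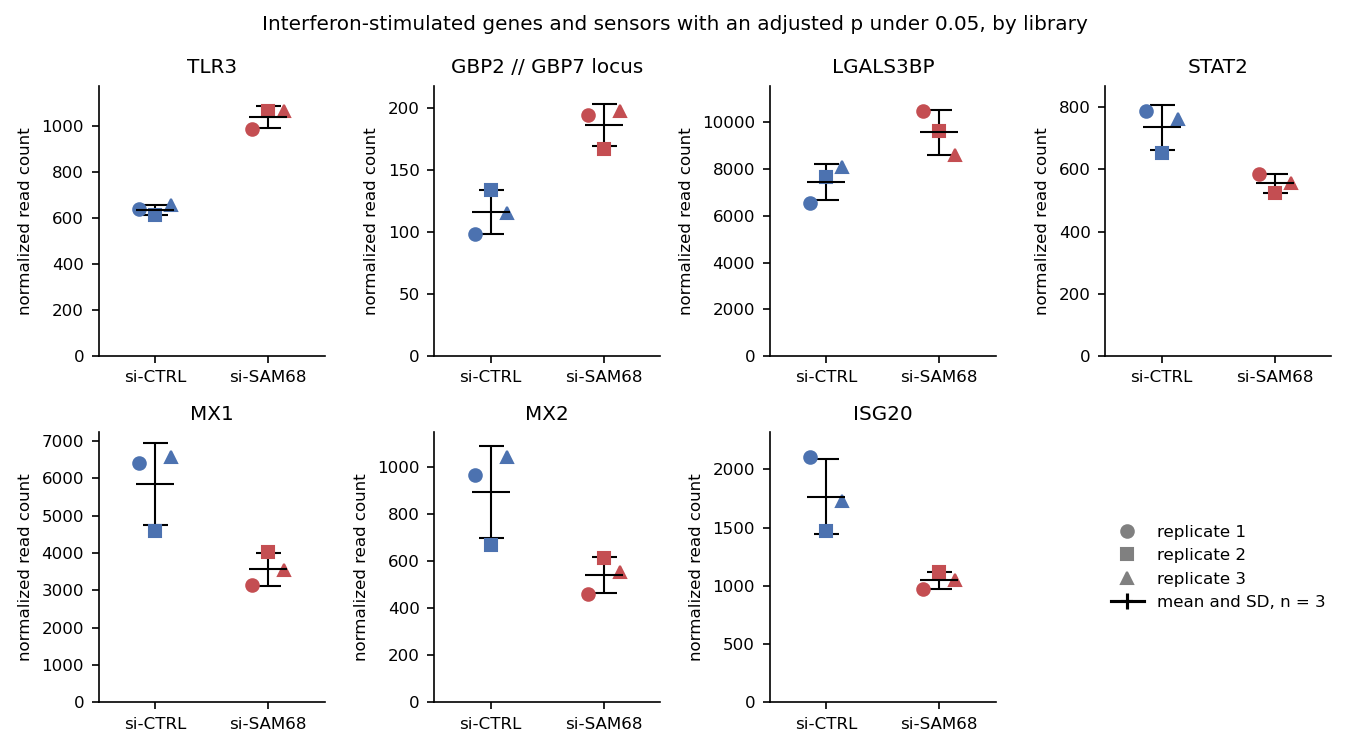
Normalized read count (vertical axis, from 0) of the 7 members with an adjusted p under 0.05 in each library, with markers for replicates 1 to 3 and bars for the mean and SD of 3 libraries. The si-CTRL and si-SAM68 libraries do not overlap in any panel, for example in TLR3 (610.2 to 655 against 984 to 1066) and in LGALS3BP (6570.4 to 8106 against 8603 to 10512).

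None of the 4 IFIT genes, whose proteins bind viral RNA and block its translation, passed the test, and their log2 fold changes lay between 0.025 and 0.11. IFIT1 had 5604, 4644 and 6656 in si-CTRL and 5261, 6356 and 6512 in si-SAM68. IFIT2 had 13041, 10432 and 13188 in si-CTRL and 11108, 13331 and 13157 in si-SAM68. IFIT3 had 11925, 9636 and 12122 in si-CTRL and 10139, 12209.6 and 11852 in si-SAM68. In all 3 genes the groups overlapped, and si-CTRL replicate 2 and si-SAM68 replicate 1 were the low libraries. The 95% intervals of the log2 fold change were -0.18 to 0.40 for IFIT1, -0.21 to 0.28 for IFIT2 and -0.22 to 0.27 for IFIT3.

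ISG15 conjugation, in which the modifier is attached to proteins by UBE2L6 and HERC5 and removed by USP18, had no member that passed the test among 5. ISG15 had 3141, 5013 and 5965 in si-CTRL and 3976, 4472 and 4263 in si-SAM68. Its control libraries spanned a 1.9-fold range, whereas the si-SAM68 libraries spanned 1.12-fold and lay within it. The log2 fold change of ISG15 was -0.10 (-0.53 to 0.32), and without si-CTRL replicate 1 it was -0.37 with an adjusted p of 0.0139. With any other library left out the adjusted p of ISG15 was between 0.762 and 0.938. USP18, which also dampens signalling at the interferon receptor, had 554, 499 and 669 in si-CTRL and 431, 461 and 442 in si-SAM68. Its groups did not overlap, but the log2 fold change of -0.36 did not pass the test (-0.63 to -0.082, adjusted p = 0.095). HERC5, HERC6 and UBE2L6 lay between -0.16 and 0.061.

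The 3 IFITM genes and BST2 (tetherin, which holds budding virus at the membrane) had log2 fold changes between -0.27 and -0.059, and none passed the test. OASL, the relative of the OAS enzymes that was found, had -0.29 (adjusted p = 0.11). PARP9, DTX3L and PARP14, whose proteins act together in ADP-ribosylation during antiviral responses, had -0.21, 0.12 and 0.088. The 6 genes named IFI (IFI6, IFI16, IFI27, IFI35, IFI44 and IFI44L) lay between -0.53 and 0.033, and none passed the test. The lowest of them, IFI44L, was named after its values were seen and had an adjusted p of 0.0903, or 0.0296 without si-CTRL replicate 2. With any other library left out the adjusted p of IFI44L was between 0.0798 and 0.256. CMPK2 was listed between 0 and 11.2.

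Around the members, 46 genes of interferon production and signalling were listed and 45 found, on 44 loci, of which 33 were tested and 11 were below the minimum. Of the loci tested 2 rose and 0 fell in limma (6.06% called, against 10.7% of all loci), with 6 higher and 6 lower at an unadjusted p under 0.05. For the unadjusted counts the share of all loci is not given here. By other tests 0 of these loci fell in edgeR and 1 in DESeq2, which called 2026 and 2789 loci in all, against 2017 in limma. The median log2 fold change of the pathway loci tested was -0.015. IFNGR1, the ligand-binding chain of the interferon gamma receptor, had 2308, 2582 and 2911 in si-CTRL and 3637, 3707 and 3524 in si-SAM68 (log2 fold change 0.48, adjusted p = 0.0125). STAT3, a transcription factor of cytokine signalling, had 9939.9, 9235 and 8701 in si-CTRL and 11538, 11726 and 11215 in si-SAM68 (0.31, adjusted p = 0.0301). Neither gene kept its call without si-SAM68 replicate 1, 2 or 3, with an adjusted p of up to 0.0593 for IFNGR1 and up to 0.132 for STAT3, which also lost it without si-CTRL replicates 2 and 3.

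MAVS, the adaptor of DDX58 and IFIH1, had 707, 485 and 516 in si-CTRL and 505, 536 and 486 in si-SAM68, a log2 fold change of -0.14 (-0.46 to 0.18). IRF3, the factor that sensors activate first, had 1632, 1616 and 1552 in si-CTRL and 2005, 1863 and 1909 in si-SAM68. Its groups were apart, at a log2 fold change of 0.27 (0.092 to 0.44) that did not pass the test (adjusted p = 0.0578).

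Of the interferon genes listed, IFNE alone reached the minimum. IFNE, known as an interferon of the epithelium of the female reproductive tract, had 199, 223 and 219 in si-CTRL and 109, 176 and 169 in si-SAM68. The groups did not overlap, and the log2 fold change of -0.53 did not pass the test (-0.95 to -0.10, adjusted p = 0.106). IFNB1, the interferon that sensors induce first in most cells, had 5, 1.94 and 1.9 in si-CTRL and 8.06, 6.44 and 11.2 in si-SAM68. These counts did not overlap but were below the minimum, and IFNB1 was not tested. IFNL1 lay between 2.23 and 9.51 with overlap. IFNA1, IFNK, IFNG, IFNL2 and IFNL3 were listed at 0 in all libraries.

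The promoters of the members were read to see how often the response element occurs near their starts. RefSeq promoters (GRCh38.p14, 250 bases before to 50 after the start) matched 39 of the 47 tested members by symbol. The core searched was GAAA, 2 free bases and GAAA on either strand, so that it reads TTTC, 2 free bases, TTTC on the other strand. It was found in 27 of the 39 (69.2%), and in 4.38% of 27305 genes with a promoter in the table. It was found in 4 of the 5 called members with a promoter (TLR3, LGALS3BP, MX1 and ISG20) and in 23 of the 34 that did not pass the test. More than 1 match in a window was found in 13 of the 34 and in 0 of the 5. The gamma-activated site, searched as TTC, 3 free bases and GAA, matched in 13 of the 39 (33.3%) and in 9.38% of all genes. These matches are descriptions of the sequence, and the data hold no measure of binding.

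The stretches around the matches in 1 window of each gene are shown for the 4 called members with a match and, for comparison, for 5 members that did not pass the test. Capitals mark the letters of the core that matched.
TLR3: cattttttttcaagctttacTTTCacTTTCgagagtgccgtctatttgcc
LGALS3BP: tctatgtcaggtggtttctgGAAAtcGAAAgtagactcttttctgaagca
MX1: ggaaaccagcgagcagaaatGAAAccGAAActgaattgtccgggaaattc
ISG20: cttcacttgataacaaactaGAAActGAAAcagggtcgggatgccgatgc
GBP1: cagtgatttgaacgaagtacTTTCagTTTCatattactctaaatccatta
ISG15: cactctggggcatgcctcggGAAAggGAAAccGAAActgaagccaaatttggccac
IFIT1: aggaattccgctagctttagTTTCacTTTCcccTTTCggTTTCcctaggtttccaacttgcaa
IFIT3: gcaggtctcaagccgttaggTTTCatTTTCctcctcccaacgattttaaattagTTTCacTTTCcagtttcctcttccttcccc
IFIH1: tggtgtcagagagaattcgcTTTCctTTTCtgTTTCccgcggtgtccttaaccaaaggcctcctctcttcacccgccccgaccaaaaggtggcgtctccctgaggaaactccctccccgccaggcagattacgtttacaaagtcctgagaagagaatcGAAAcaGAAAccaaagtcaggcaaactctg

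In GRCh38.p14 the stretch of TLR3 lies at chr4:186069132-186069181 (plus strand), and its match begins 4 bases before the start. Those of LGALS3BP (chr17:78979952-78980001, minus strand), MX1 (chr21:41420549-41420598, plus strand) and ISG20 (chr15:88638927-88638976, plus strand) each hold 1 match. The MX1 match shown lies after the start of 1 of its 3 windows. Another window of MX1 holds a match at -196 to -187 from its start, which is not shown. The stretches of GBP1 (chr1:89065306-89065355, minus strand), ISG15 (chr1:1013364-1013419, plus strand), IFIT1 (chr10:89392487-89392549, plus strand), IFIT3 (chr10:89327821-89327904, plus strand) and IFIH1 (chr2:162318676-162318863, minus strand) hold 1 to 3 matches. ISG15, IFIT1, IFIT3 and IFIH1 hold more copies of the core in these stretches than the called members shown, and did not pass the test of expression. The matches of ISG15 overlap (-113 to -104 and -107 to -98 from the start), as do those of IFIH1 at -159 to -150 and -153 to -144. The stretches for comparison are a selection from the 23 members that did not pass and hold a match. Of these, 13 hold more than 1 match in a window. No promoter was matched for MX2 or the GBP2 locus. The contrast therefore rests on the 5 called members with a promoter, of which 0 hold more than 1 match in a window. A relation between copies of the core and expression was not tested.

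**Figure D4:**
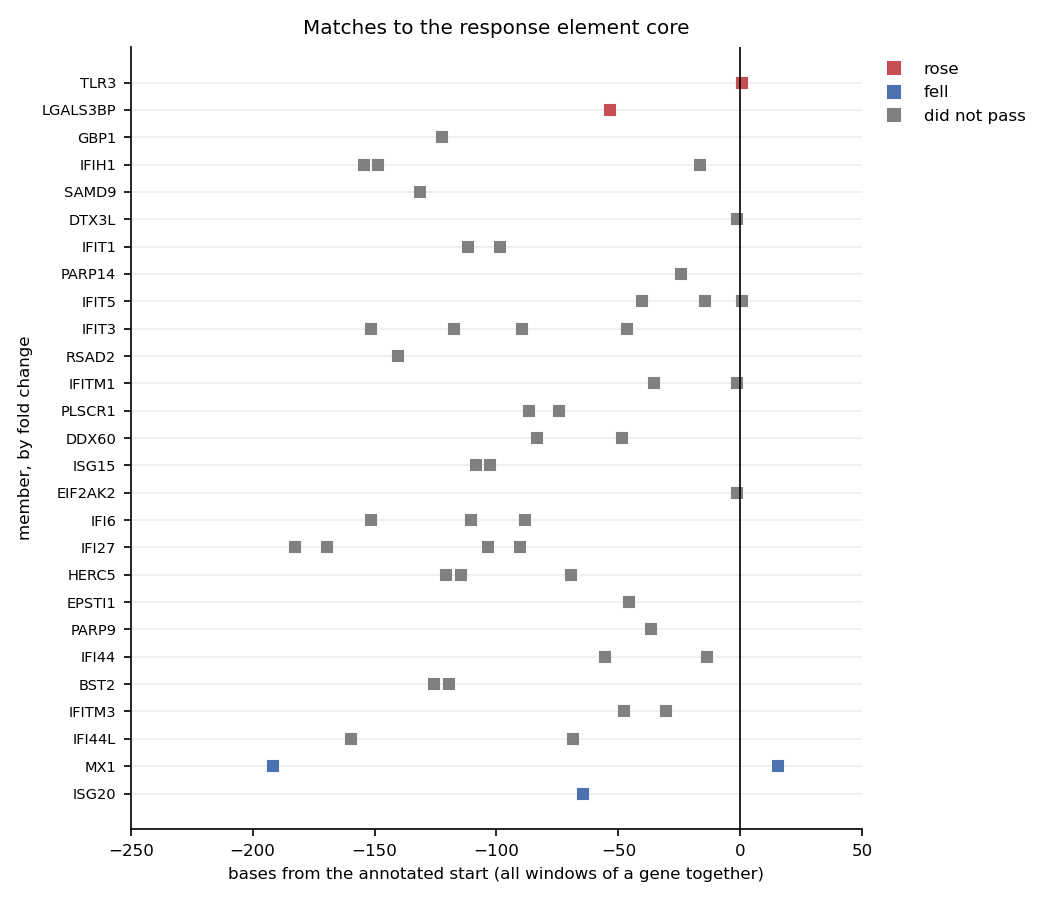
Position of each match to the core of the interferon-stimulated response element (horizontal axis, bases from the annotated start) in the 27 tested members that hold 1, ordered by fold change with the highest at the top. Red marks members that rose, blue members that fell and grey members that did not pass the test, and matches of all windows of a gene are drawn together.

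The libraries of a group differed in these genes in the same direction for most members. In si-CTRL replicate 2, 31 of 47 members (66.0%) were the lowest of their group, whereas 31.7% of all loci were. In si-SAM68 replicate 1, 34 of 47 members (72.3%) were the lowest, beside 36.4% of all loci. The highest control value was in si-CTRL replicate 3 for 27 members (57.4%, all loci 31.1%), and the highest knockdown value in si-SAM68 replicate 2 for 24 members (51.1%, all loci 27.9%). The median deviation from the group mean over the members was 0.025, -0.14 and 0.093 in si-CTRL replicates 1 to 3, and -0.10, 0.065 and 0.041 in si-SAM68 replicates 1 to 3 (log2 scale). Over all loci these medians lay between -0.0058 and 0.006. The members are not independent of each other, and these values are descriptions.

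The base composition of the transcripts moved with part of this pattern. The limit of 45% GC and the limit of 1000 bases below were chosen after the values were seen. In si-SAM68 replicate 1, all 4426 loci with a transcript under 45% GC had a median deviation of -0.062, and 62.1% of them were lowest there. The 23 members under that limit had -0.17, with 22 of the 23 (95.7%) lowest in that library. The 22 members at or above it had -0.039, and 54.5% of them were lowest there. In si-CTRL replicate 2 the loci under 45% GC had a median deviation of -0.0011, while the members under and above the limit had -0.18 and -0.078. In si-SAM68 replicate 2 these loci had -0.0061 and the members 0.079 and 0.06. In si-SAM68 replicate 3, where 64.9% of these loci were highest, they had 0.067 and the members 0.093 and -0.036. No value for all loci at or above the limit is given here. The part of GC content in these deviations was not tested.

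The widest ranges among the control libraries were those of IFI6, IFI27 and ISG15, all with a transcript under 1000 bases. IFI6, a small mitochondrial protein known to inhibit apoptosis, had 2119.7, 3612 and 6809 in si-CTRL, a 3.21-fold range, and 3259, 3724 and 3403 in si-SAM68, a 1.14-fold range. IFI27, a related small protein, had 172, 299 and 429.7 in si-CTRL (2.49-fold) and 259.9, 262 and 248 in si-SAM68 (1.06-fold). ISG15 had the same order of the control libraries. The other 3 members under that length were IFITM1, with a control range of 1.46-fold, and IFITM2 and IFITM3, with 1.08-fold and 1.05-fold. In the si-SAM68 libraries the widest range was that of RSAD2 (2.28-fold), which has a transcript of 3519 bases. The 6 members with a transcript under 1000 bases had median deviations of -0.39, -0.044 and 0.35 in si-CTRL replicates 1 to 3. All 411 loci under that length had -0.19, 0.067 and 0.11. In si-SAM68 replicates 1 to 3 the 6 members had 0.016, 0.057 and -0.091, and the 411 loci 0.059, -0.06 and -0.016. In si-SAM68 replicate 2, 4 of the 6 members were the highest of their group, whereas 54.7% of the 411 loci were the lowest. In si-CTRL replicate 1, 4 of the 6 members were the lowest of their group and 2 (IFITM2 and IFITM3) the highest, and 68.6% of the 411 loci were the lowest. The part of transcript length in the spread of these genes was not tested.

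**Figure D5:**
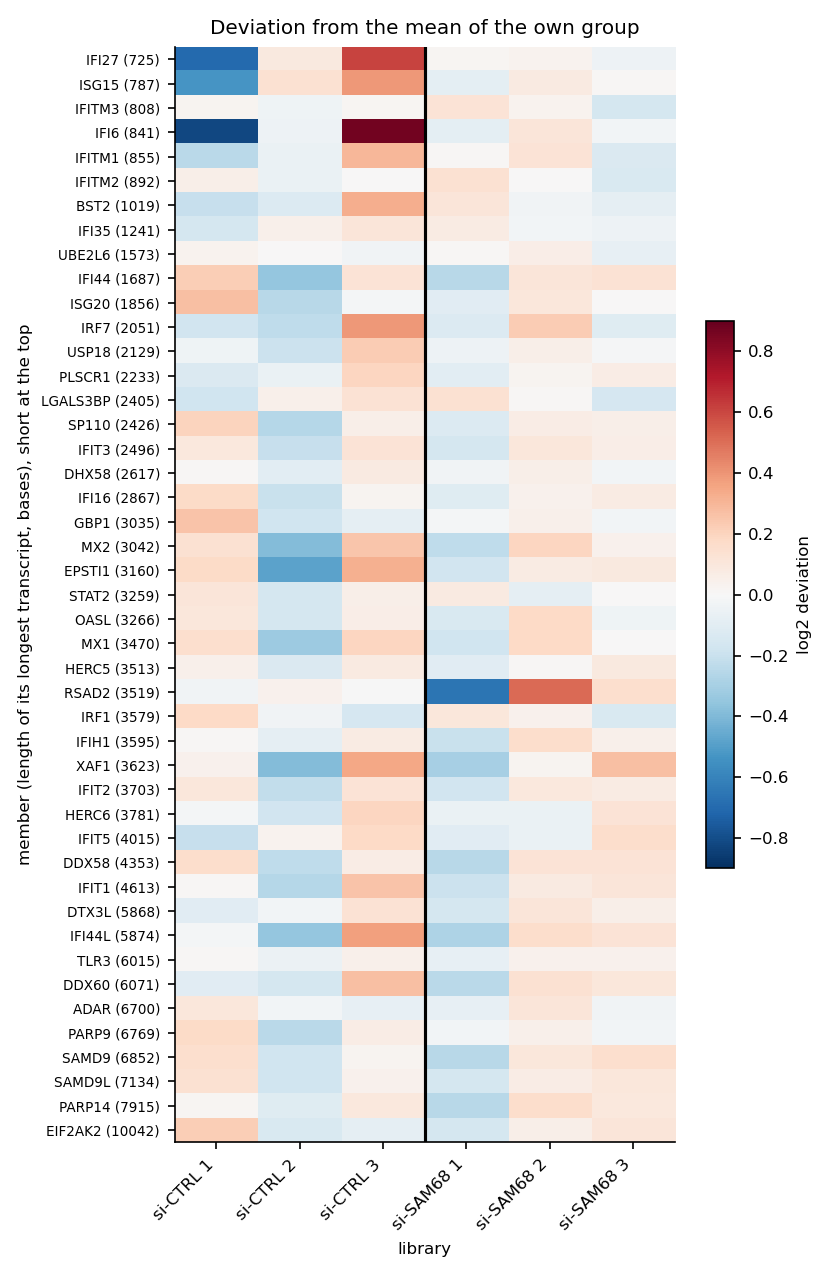
Log2 deviation of each member from the mean of its own group (colour, red above and blue below) in each library (columns) for the 45 members with a transcript length, ordered from short (top) to long. The column of si-CTRL 2 and that of si-SAM68 1 are blue in most members, and IFI27, ISG15 and IFI6 at the top are low in si-CTRL 1 and high in si-CTRL 3.

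The median spread within groups was near that of all loci, which were not matched to the members for level. A median does not show the shared shifts of libraries given above. The median residual SD of the members was 0.168 on the log2 scale against 0.162 over all loci, with 26 of 47 members above the latter. The range of the control libraries was larger than that of the si-SAM68 libraries in 35 of 47 members. The share of all loci with a larger control range is not given here, so that this is no trait particular to the members.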

How the data were processed

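RNA of 6 libraries (3 per group, groups and replicate numbers from the sample titles) was sequenced by the authors as single-end reads of polyadenylated RNA. The deposited unit is a signal, which the authors made by counting reads per FAST DB locus and scaling each library with its DESeq2 size factor. The submitters' processing notes name STAR 2.4.0, SAMtools, Picard, FastQC, DESeq2 and hg19. The counting program and the use of strand are not given in the sources used here, so that overlapping genes, antisense partners and paralogs can share reads. Whole reads were recovered, since 100% of the values of a library were multiples of 1 step (tolerance 0.001).

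limma 3.58.1 in R 4.3.3 (lmFit, eBayes with trend) was run after a log2 transform (pseudocount 1) for all loci whose mean reached 10. This scale understates fold changes of low genes. The Benjamini-Hochberg adjustment covered all 18849 loci. "Rose" and "fell" stand for an adjusted p under 0.05. The members and lists were chosen with earlier results of these data known. Named with every library were members that were called and, whatever their values, the sensors other than DDX60, ISG15, USP18, IFIT1 to IFIT3, STAT2, IRF1, IRF7 and IRF9. IFI6, IFI27 and IFNE were added after their values were seen. Deviations of libraries with the same number correlated at 0.105, 0.231 and 0.125, and of other pairs between -0.125 and 0.00687. No label states a pairing by number, and a replicate block was therefore fitted only as an alternative. The other alternatives were pseudocounts, filters, scalings, edgeR 4.0.16 and DESeq2 1.42.0 on the recovered reads, and each library left out. The pipeline was tested on simulated data. Transcript lengths and GC come from the longest protein-coding transcript in GENCODE, and promoter sequences from RefSeq. A gene of the pathway list is not reported here.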

Additional observations from a re-analysis of the deposited data

How the results depend on the processing

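Of the values recomputed, 431 kept their direction and their side of the threshold or moved by less than the replicate spread, 35 lost a call, 1 gained one, 28 moved further and 9 changed sign. With the replicate block, limma called 1 member higher (TLR3) and 3 lower (ISG20, MX1 and STAT2), and edgeR with the block also gave 1 higher. Over all loci these fits called 1697 and 1722. The block removed the calls of the GBP2 locus, MX2 and LGALS3BP and changed no other member's call. eBayes without a trend gave 0 members lower and 2 higher, and 0 pathway loci higher, among 899 loci called in all. At an unadjusted p under 0.05, 7 members were lower and 5 pathway loci higher in that fit, without a share of all loci beside them. In edgeR 4 members were lower and in DESeq2 6. The loci called in all were 2026 in edgeR and 2789 in DESeq2, against 2017 in the main fit. Pathway loci called higher were 5 with DESeq2, 5 with a minimum mean of 50 and 1 without a filter. Over all loci, 2165 were called with the minimum of 50 and 1500 without a filter. Pathway loci called lower were 1 with DESeq2, 1 with the minimum of 50 and 1 after quantile normalization, which called 2040 loci in all. LGALS3BP also lost its call in edgeR, with a pseudocount of 0.1, without a filter and after quantile normalization, and STAT2 in the last 2 of these. The cause was not tested.

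With each library left out in turn, members called higher were between 1 and 5 and lower between 1 and 5. The most, 10 in all, were called without si-CTRL replicate 1 (with ISG15, GBP1 and SAMD9L added) and the fewest, 2, without si-SAM68 replicate 1 or 3. The loci called in all were then 2839, 923 and 625. By the study's thresholds members higher were between 1 and 2 and lower between 2 and 5. Pathway loci higher were between 0 and 6 and lower between 0 and 1. The median of the members lay between -0.14 and -0.014. The log2 fold change changed sign for 14 members, none of them called, among them IFIT1 (-0.022 to 0.24), IFIT2 (-0.07 to 0.12), IFIT3 (-0.081 to 0.11), IRF1 (-0.028 to 0.14), ISG15 (-0.37 to 0.093), IFI6 (-0.52 to 0.32), IFI27 (-0.48 to 0.17) and RSAD2 (-0.29 to 0.30). The precision is limited by 3 libraries per group. CMPK2 and IFNB1, with counts of 0 to 11.2 and 1.9 to 11.2, were below the minimum of the main fit and were not tested in it.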
